A study of Mus musculus with 17 samples.

Results

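Bone, cartilage and stromal progenitors (BCSP) are a sorted cell population downstream of the skeletal stem cell (SSC) in the mouse skeletal lineage. The BCSP arrays were taken by their titles and numbered 8 of the 17 arrays of the study: 6 from fracture callus and 2 from uninjured bone. All mice were female C57BL/6. Ovaries were removed (OVX) or a sham operation was done at 8 weeks of age, a femur was fractured at 14 weeks, and callus was collected 7 days later. Of the callus arrays, SB and SIB came from sham mice, OB from OVX mice and EB from OVX mice given estradiol (E2). The labels of OIB give both OVX and sham, and those of BI name no ovarian surgery. The uninjured arrays were BU, from sham mice, and OUB, from OVX mice. Ovary states were pooled here, so that fracture callus was compared with uninjured bone. The study calls its data biological replicates and describes pooling the cells of several mice for work in vitro, but the sources used here do not say whether an array holds 1 animal or a pool, so the spread between arrays may be partly technical.

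A fracture of a long bone heals through a soft callus of cartilage and fibrous tissue that is later replaced by bone. Skeletal progenitors that gather at the break secrete fibrillar collagens, which must be hydroxylated, folded, trimmed and crosslinked before they bear load, and some become chondrocytes or osteoblasts. BCSP are gated on integrin alpha V (CD51) and endoglin (CD105), and against CD45, Ter119, Tie2, Thy1 and 6C3, so blood and endothelial cells are meant to be left out.

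The array values did not follow that gate throughout. Ptprc, which encodes CD45, read 13.79 on BU and 14.74 on OUB, against 7.09 on SB, 6.58 on OB, 8.80 on EB, 9.61 on SIB, 12.02 on OIB and 12.73 on BI (log2 levels, where the lowest value allowed, the floor, was 5.95). It was highest on both uninjured arrays, next on BI and OIB, and near the floor on SB and OB. The uninjured arrays therefore went against the gate for CD45. The mean level of 14 neutrophil markers ran from 8.89 to 13.20 in callus, with BI the highest, and stood at 14.53 on BU and 13.52 on OUB. Erythroid markers had a mean of 12.39 on BI, 12.38 on BU and 12 on OUB, against 7.59, 7.48 and 7.50 on SB, OB and EB. Endothelial markers had another order: their mean was 11.34 on OIB, 10.44 on SIB and 9.60 on OUB, and 7.63 to 8.77 on the others. Tek, which encodes Tie2, read 11.70 on OIB, 10.48 on OUB and 9.88 on SIB. The gate's positive markers were called higher in callus with both uninjured arrays. The difference, callus mean minus uninjured mean on the log2 scale as for all differences given here, was +1.34 ± 0.26 (SE), adjusted p = 0.00261 (limma) for Itgav, the alpha V subunit, and +0.80 ± 0.28 (SE), adjusted p = 0.0498 for Eng, endoglin. Neither passed without BU (adjusted p = 0.091 and 0.304) or without BI and BU (0.0527 and 0.196). In sorted bulk samples fewer cells of a type and less RNA per cell cannot be told apart, and how far blood or endothelial RNA sets the differences below was not tested.

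**Figure D1:**
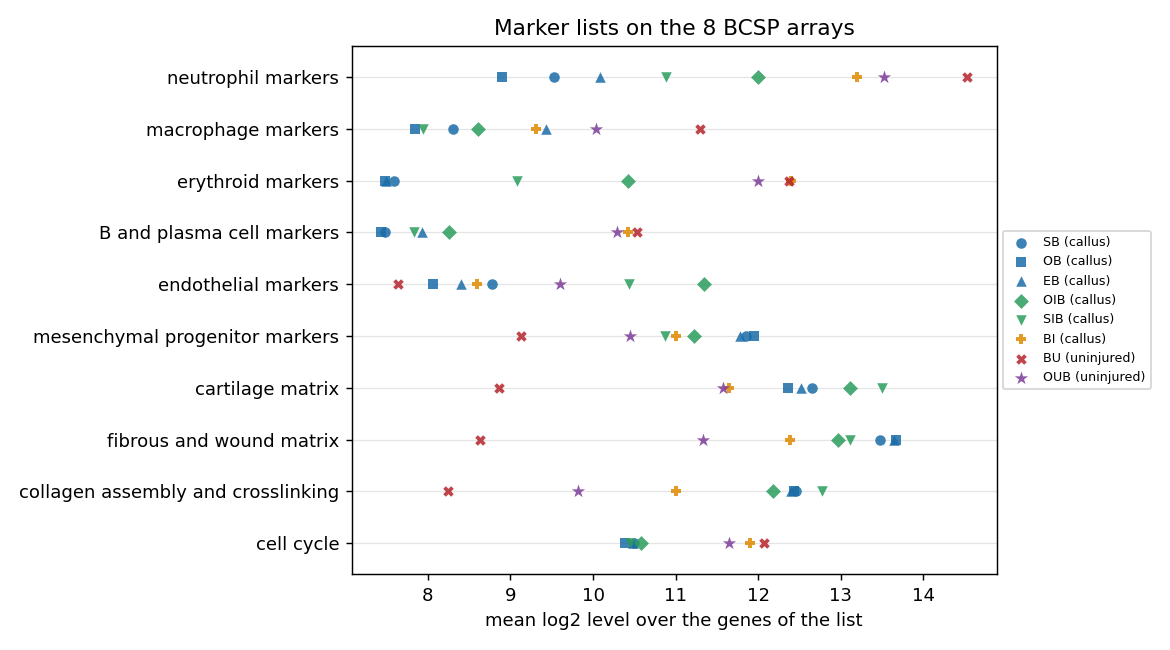
Mean log2 level of the genes of 10 lists (rows) on each of the 8 BCSP arrays (points). The 2 uninjured arrays and BI lie at the right of the neutrophil, erythroid, B and plasma cell and cell cycle rows, and in the 3 matrix rows BU lies at the left (at 8.24 for collagen assembly) with OUB next.

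SB, OB and EB were nearly alike over the 14504 genes tested, with Spearman correlations of 0.972 to 0.977, and OIB and SIB correlated with them at 0.895 to 0.920. BI correlated with the other 5 callus arrays at 0.754 to 0.816 and with OUB at 0.838, that is, more closely with an uninjured array than with any callus array. It was the highest of the 8 arrays for 2749 genes and the lowest for 2322, in 732 of them by over 1 log2 unit, among them Myod1, the muscle regulator, at 10.77 against at most 7.87 elsewhere. Results are therefore given with BI and without it. The uninjured arrays correlated at 0.864 with each other, their median distance was 0.50 log2 units, and 714 genes lay over 2 units apart. OUB correlated with the callus array OIB at 0.868, at least as closely as with BU. With SB, OB, EB and SIB it correlated at 0.724 to 0.740.

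Fracture callus differed from uninjured bone at 2965 genes (20.4% of those tested; limma, adjusted p under 0.05), 1621 higher (11.2%) and 1344 lower (9.27%). Without BI 4584 genes were called (31.6%), 2428 higher (16.7%) and 2156 lower (14.9%). All but 8 of the first set were in the second, in the same direction. The 6 callus values lay wholly above or below both uninjured values for 3839 genes (26.5%), and 2526 of these were called. All counts of the lists below are to be read against these shares over all genes. Fewer genes passed with 1 uninjured array left out: 702 genes were called without BU and 1842 without OUB. Without BU alone the lists below had few calls, at most 8 (collagen assembly). Without both BI and BU, where OUB alone stood for uninjured bone and was assumed to vary like the other groups, 2692 were called (18.6%; 10.7% higher and 7.86% lower), which held 1011 of the 1621 higher and 834 of the 1344 lower genes.

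The 15 largest increases were led by Adam12 and Cthrc1. Adam12, a cell-surface metalloprotease of the ADAM family, read 5.95 on BU and 8.60 on OUB, the first at the floor, and 11.86 to 13.64, with a median of 12.96, in callus. All 6 callus values were above both uninjured values, as the choice of the 15 genes required. The difference was +5.65 ± 0.56 (SE), adjusted p = 3.64e-05 (limma), though its size depends on the floor. Cthrc1, a secreted protein of injured and remodelling tissue, read 6.57 on BU and 10.05 on OUB and 13.10 to 14.49, with a median of 13.97, in callus, a difference of +5.56 ± 0.68 (SE), adjusted p = 0.000154. It was +3.82 without BU and +7.30 without OUB, so that its size depends on the uninjured array. SIB was its lowest callus array, and the groups did not overlap. Sfrp2, a secreted Wnt modulator, rose by 5.45, and C1qtnf3 (also CTRP3) by 5.40. Col12a1, a fibril-associated collagen, rose by 5.29, and Tnn, tenascin W of bone and periosteum, by 5.13. The rest of the 15 largest were Capn6 (+5.29), the arylsulfatase Arsi (+5.19), Srpx (+5.12), the pentraxin Ptx3 (+5.04), the growth factor Ptn (+5.01), Fstl1 (+4.90), the imprinted zinc finger gene Peg3 (+4.88), Col5a3 (+4.80) and Mmp14, the membrane-bound collagenase (+4.77). C1qtnf3 and Peg3 lay far apart between the uninjured arrays (5.95 on BU and 11.71 on OUB, and 6.33 on BU and 11.55 on OUB), and without BI and BU their differences were +2.53 (adjusted p = 0.0874) and +2.35 (0.075). The other 13 of the 15 were also called without BI and BU, and BU was the lower of the uninjured arrays in all 15.

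The 15 largest decreases were led by Clec4e. Clec4e, a pattern receptor of neutrophils and macrophages, read 13.84 on BU and 13.97 on OUB and 5.95 to 11.34, with a median of 7.91, in callus, a difference of -5.54 ± 1.43 (SE), adjusted p = 0.0128. SB, OB and EB were at or near the floor, and BI and OIB were the highest callus arrays at 11.34 and 11.12. Mmp8, neutrophil collagenase, fell by 4.94, Dntt, the nucleotide transferase of lymphocyte precursors, by 4.95, and Ccr1, a chemokine receptor of myeloid cells, by 5.10. Igk-V21, an immunoglobulin light chain gene, was at the floor on all 6 callus arrays and read 11.81 on BU and 10.23 on OUB, so that its difference of -5.07 depends on the floor. Rgs18, Cd48, Arhgap15, Jchain, Slfn4, Gca, Cytip, Fpr2, Clec7a and Aqp9 made up the remaining 15, with differences of -5.34 to -4.86. Their groups did not overlap, which the choice of the genes required. BI or OIB was the highest callus array for 13 of the 15, and 13 were also called without BI and BU, all but Slfn4 (0.0634) and Mmp8 (0.0503).

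**Figure D2:**
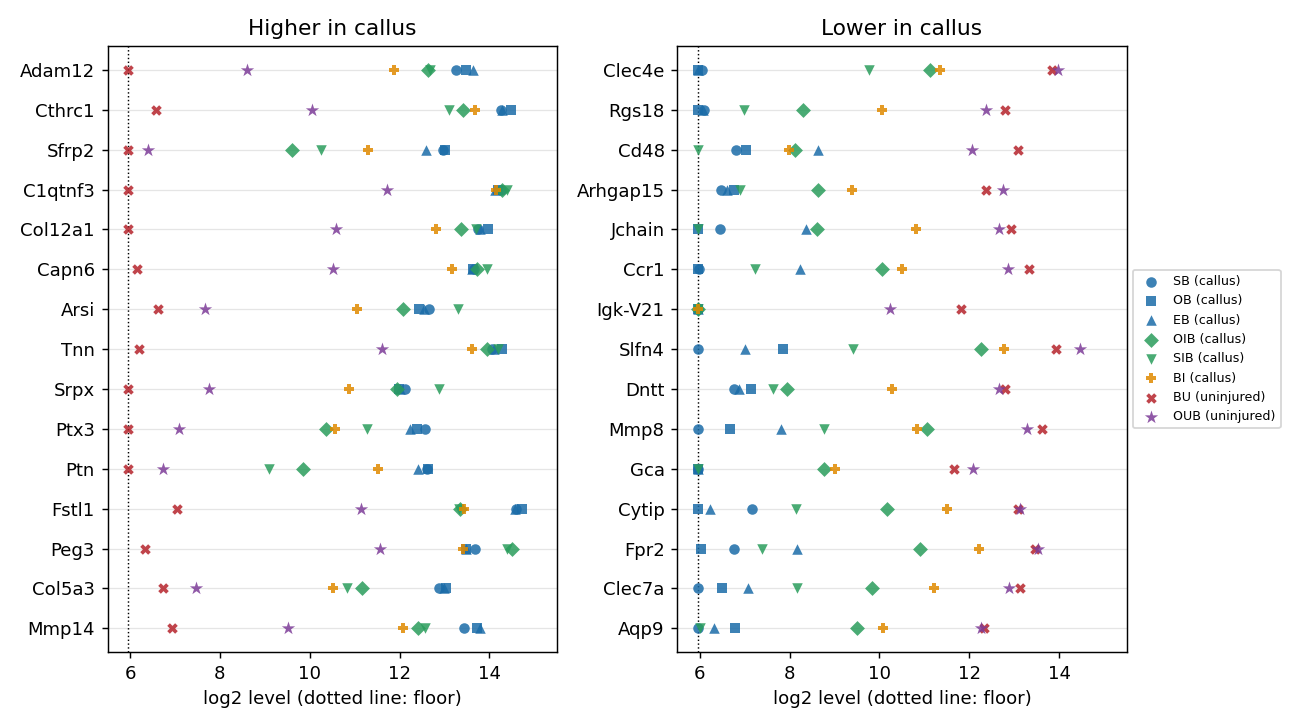
Log2 levels on the 8 BCSP arrays (points) of the 15 genes with the largest increase (left) and the largest decrease (right) among genes called with and without BI whose groups did not overlap. On the left BU is within 1 log2 unit of the floor (dotted line, 5.95) for 14 of the 15 genes, and on the right BI is the highest callus array for 12 of the 15.

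Genes that assemble and crosslink collagen rose together. All 17 tested members were called higher, with a median of +3.28 against +0.09 over all genes, and in all 17 the 6 callus values were above both uninjured values. Without BI the count was again 17 (median +3.46), and without BI and BU it was 12 (median +2.69). Lysyl oxidases, which crosslink collagen and elastin, were led by Loxl1, which read 6.09 on BU and 8.36 on OUB and 9.13 to 13.46, with a median of 12.39, in callus (+4.67 ± 1.13 (SE), adjusted p = 0.00929). Loxl3 rose by 3.70, Loxl4 by 2.99 and Lox itself by 2.81. Lysyl hydroxylases, which prepare the residues that are crosslinked, rose by 3.76 for Plod1, 2.97 for Plod2 and 2.72 for Plod3. Plod1 read 8.95 on BU and 8.72 on OUB and 10.81 to 13.86, with a median of 12.77, in callus, so that both uninjured arrays were well below the lowest callus array. Prolyl hydroxylase subunits, which stabilise the triple helix, rose by 2.51 for P4ha1, 3.43 for P4ha2 and 4.23 for P4ha3. The prolyl 3-hydroxylase P3h1 rose by 3.80, and its partner Crtap by 2.85. Serpinh1, the collagen chaperone HSP47, read 8.25 on BU and 12.45 on OUB and 13.83 to 14.51, with a median of 14.44, in callus (+3.98 ± 0.81 (SE), adjusted p = 0.0034). It lost its call without BI and BU (adjusted p = 0.0875). Among the procollagen trimming genes, the C-proteinase Bmp1 rose by 2.83, its enhancers Pcolce and Pcolce2 by 4.06 and 2.51, and the N-proteinase Adamts3 by 3.28. BI was the lowest callus array for 16 of the 17 genes and for the mean of the list, at 11 against 12.18 for the next.

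**Figure D3:**
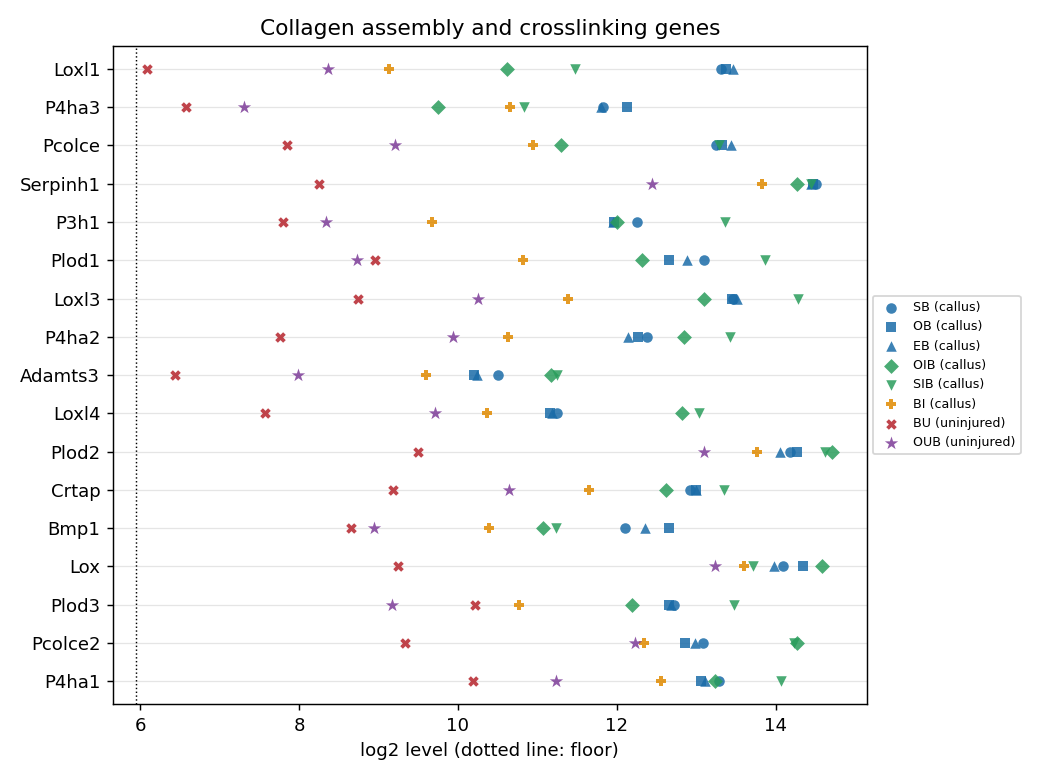
Log2 levels of the 17 tested collagen assembly and crosslinking genes on the 8 BCSP arrays (points), ordered by the difference of callus and uninjured bone. For every gene both uninjured arrays lie to the left of all 6 callus arrays, and BI is the leftmost callus array for 16 of the 17.

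Fibrous and wound matrix genes were higher as well. Of 22 tested genes 17 rose and none fell (median +3.22), 20 without BI and 10 without BI and BU. Postn, periostin of the periosteum, read 8.0 on BU and 11.60 on OUB and 14.40 to 14.65, with a median of 14.55, in callus (+4.73 ± 0.84 (SE), adjusted p = 0.00153). Tnc, tenascin C, read 8.31 on BU and 10.39 on OUB and 12.79 to 14.18, with a median of 13.36, in callus (+4.09 ± 0.62 (SE), adjusted p = 0.000617). Neither overlapped between the groups, and OUB lay between BU and the callus arrays for both. Fbn2, a fibrillin of developing and healing tissue, rose by 4.38, Col6a2 by 4.28, Col5a1 by 3.16 and Col3a1 by 2.38. Fn1, fibronectin, had a difference of +1.67, adjusted p = 0.112, and Thbs1 of +0.88, adjusted p = 0.191. Small leucine-rich proteoglycans, which coat collagen fibrils, were called higher in 2 of 11, Fmod (+2.81) and Bgn (+2.48), against 11.2% over all genes. The median of the list was +1.92, but +0.41 without BU and +0.45 without BI and BU. Dcn, decorin, was near the top of the scale on all arrays, at 14.31 on BU and 14.73 on OUB and 14.85 to 15.19, with a median of 15.05, in callus (+0.51, adjusted p = 0.505).

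Of 22 tested matrix proteases and inhibitors 12 rose, 7 without BI and BU, and 2 fell, a share close to the 9.27% over all genes. Besides Adam12 and Mmp14, the gelatinase Mmp2 rose by 4.52, Adamts12 by 4.46, the aggrecanase Adamts4 by 3.84 and the inhibitor Timp1 by 4.21. The decreases were Mmp8 and Mmp9 (-2.04), both stored in neutrophil granules, and neither was called without BI and BU. Mmp13, the collagenase of hypertrophic cartilage and bone, was counted with the osteoblast genes. It read 5.95 on BU and 11.92 on OUB and 12.40 to 13.87, with a median of 13.28, in callus (+4.26 ± 1.20 (SE), adjusted p = 0.0199), and had an adjusted p of 0.466 without BI and BU.

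Cartilage matrix rose mainly against BU. Of 21 tested genes 11 were called higher (median +2.52), 13 without BI, but 4 without BI and BU (median +1.18). Col2a1, the main cartilage collagen, read 10.71 on BU and 14.34 on OUB and 14.46 to 15.42, with a median of 15.30, in callus. OUB was just below the lowest callus array, and the difference of +2.52, adjusted p = 0.0554, was not called. Cnmd, chondromodulin of avascular cartilage, read 7.87 on BU and 11.19 on OUB and 13.16 to 14.84, with a median of 14.08, in callus (+4.60 ± 0.72 (SE), adjusted p = 0.000709). Ucma, of the cartilage matrix, rose by 4.05, Col9a3 by 3.89 and Matn4 by 2.04. With Cnmd these were the 4 still called without BI and BU. Matn3 rose by 4.42 and Acan, aggrecan, by 2.95. Prg4, lubricin of joint surfaces, had a difference of +0.39, adjusted p = 0.667.

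Regulators of the chondrocyte were called in 2 of 14, Pth1r, the parathyroid hormone receptor (+3.94), and Sox5 (+1.41), a share close to the 11.2% over all genes. The count was 6 without BI and 0 without BU or without BI and BU. Ihh, the hedgehog ligand of prehypertrophic cartilage, read 6.89 on BU and 7.19 on OUB, 12.16 on OIB and 12.44 on SIB, and 9.05, 9.20 and 9.52 on SB, OB and EB. OIB and SIB stood apart from the other callus arrays, and the difference of +2.94, adjusted p = 0.0716, was called only without BI (adjusted p = 0.0193). Sox9, the master regulator of cartilage, had +2.01, adjusted p = 0.053, and Col10a1, the collagen of hypertrophic cartilage, +1.73, adjusted p = 0.511. Col10a1 read 9.51 on BU and 12.84 on OUB, 7.29 on BI and at least 13.23 on the other 5 callus arrays.

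Osteoblast genes were called higher in 8 of 18 tested, 10 without BI and 2 without BI and BU. Sp7, osterix, the transcription factor of osteoblast commitment, read 6.45 on BU and 6.93 on OUB and 8.90 to 10.67, with a median of 9.23, in callus (+2.81 ± 0.45 (SE), adjusted p = 0.000872), with no overlap. Col1a1, the main collagen of bone, read 9.83 on BU and 13.46 on OUB and 14.33 to 15.21, with a median of 15, in callus (+3.21 ± 0.78 (SE), adjusted p = 0.00972). Smpd3, needed for mineralization, rose by 3.74 and Cgref1 by 3.35. Ibsp, bone sialoprotein, had +1.07, adjusted p = 0.262, Dmp1, of osteocytes, +0.31, adjusted p = 0.805, and Sost, sclerostin, -0.04, adjusted p = 0.935.

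Mesenchymal progenitor markers rose in 8 of 14 tested, with and without BI, and in 2 without BI and BU, Ctsk (+4.03) and Pdpn (+3.23). Prrx1, the limb mesenchyme factor, read 7.36 on BU and 10.47 on OUB and 11.37 to 12.87, with a median of 12.29, in callus (+3.29 ± 0.77 (SE), adjusted p = 0.00799). Pdgfra had a difference of +2.57, adjusted p = 0.0605. Shox2 (+3.35), Hoxc10 (+3.16) and Hoxa10 (+2.31), which pattern the limb, were among 6 of 19 tested Hox and limb genes called higher (3 without BI and BU). Contractile genes rose in 7 of 15 (3 without BI and BU), led by the tropomyosin Tpm2 (+4.56) and the myosin light chain Myl9 (+3.75). Tendon genes rose in 4 of 11 (2 without BI and BU), among them Tnmd, tenomodulin (+4.25), and the tendon factor Mkx (+1.76). None of either list fell.

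Among the signalling lists the Wnt list, which was the longest, had the most calls, 14 of 33 higher and none lower (median +1.40). Without BI 17 were higher. Over all genes 11.2% were higher, and 16.7% without BI. Fibroblast and insulin-like growth factor genes, with 11 of 23 higher, had a larger share. Without BI and BU the median of the Wnt list was +0.89. Among ligands, the noncanonical Wnt5a read 5.95 on BU and 6.94 on OUB and 10.19 to 11.25, with a median of 10.65, in callus (+4.18 ± 0.35 (SE), adjusted p = 2.1e-05), and Wnt5b rose by 3.33. Both uninjured arrays were far below every callus array for Wnt5a. Among receptors, Ror2, which binds Wnt5a, rose by 1.97, Fzd1 by 3.38, Fzd8 by 2.58 and Fzd2 by 2.55. Among secreted modulators, Sfrp1 rose by 4.14, Dkk3 by 3.10 and the enhancer Rspo3 by 2.0. Axin2, a target of canonical Wnt signalling, had +0.53, adjusted p = 0.359, Lef1 -0.28, adjusted p = 0.704 and the antagonist Dkk1 -1.76, adjusted p = 0.189.

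Of 20 tested TGF-beta and activin genes 8 rose, against 11.2% over all genes, and 10 without BI, against 16.7%. Without BI and BU 1 rose, Fstl1, a follistatin-like glycoprotein, and 1 fell, the receptor Tgfbr1 (-1.75). The ligands Tgfb2 and Tgfb3 rose by 3.28 and 3.36, Tgfb1 had +0.67, adjusted p = 0.367, and the latent ligand binding proteins Ltbp1, Ltbp2 and Ltbp3 rose by 3.36, 3.27 and 2.58. Fibroblast and insulin-like growth factor genes rose in 11 of 23, and without BI and BU 5 rose and 1 fell. Igf1 read 10.32 on BU and 8.39 on OUB and 11.28 to 14.11, with a median of 12.84, in callus (+3.46 ± 0.95 (SE), adjusted p = 0.0179), with no overlap, and Igf2 rose by 3.92. Igf2r, the receptor that clears Igf2, rose by 1.89, and Pappa, a protease that frees insulin-like growth factors, by 2.89, while Igf1r had -1.05, adjusted p = 0.158. Fgfr1 and Fgfr2 rose by 2.81 and 2.91, and the ligand Fgf7 by 2.98. 

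Bone morphogenetic protein genes rose in 7 of 22 (10 without BI) and fell in none, against 11.2% higher and 9.27% lower over all genes. The ligands Gdf5, of joint and cartilage condensations, and Bmp5 rose by 2.61 and 2.73, the receptor Acvr1 by 2.69, the antagonist Chrdl1 by 2.94, and the target genes Id1 and Id3 by 1.85 and 2.48. Without BI and BU 2 were called, Gdf5 and Id3. Hedgehog genes rose in 4 of 13, the transducer Smo (+1.82, and -0.09 on its probe set of widest range), the factors Gli1 (+1.35) and Gli3 (+2.05) and the coreceptor Cdon (+1.92), and in 2 without BI and BU, Smo and Gli3. PDGF, VEGF and angiogenic ligand genes rose in 5 of 14, led by midkine, Mdk (+3.81), which was the only 1 called without BI and BU. Notch genes rose in 1 of 14, the fringe enzyme Rfng (+1.44), a share below the 11.2% over all genes. Guidance genes of the semaphorin, plexin, ephrin and Slit families rose in 12 of 32 and fell in 2, and without BI and BU in 6 and 1. Sema3c rose by 2.59, Plxnb2 by 2.52, and Slit2, Slit3 and their receptor Robo1 by 1.89, 2.37 and 2.48, while Plxnc1 fell by 4.09 and Sema4d by 2.37. The 2 that fell, a share below the 9.27% over all genes, are also expressed in leukocytes. Without BI 18 guidance genes rose and 2 fell.

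Of 13 tested steroid, vitamin D and retinoid receptors 3 rose (5 without BI), against 11.2% over all genes, and 1 fell, close to the 9.27%. Those that rose with BI were the retinoic acid receptor Rarg (+2.92), its partner Rxra (+1.46) and the membrane estrogen receptor Gper1 (+2.38). The one that fell was Esr1, estrogen receptor alpha, which read 9.83 on BU and 9.79 on OUB and 7.76 to 9.61, with a median of 8.69, in callus (-1.11 ± 0.38 (SE), adjusted p = 0.0465). Its probe sets disagreed: on the probe set of widest range the difference was +0.75 (adjusted p = 0.475). Esr2, estrogen receptor beta, had +0.24, adjusted p = 0.594.

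Of 27 tested chemokines and interleukin-6 family genes 3 rose (5 without BI), close to the 11.2% over all genes, and 5 fell (5 without BI), against 9.27%. Without BI and BU 0 rose and 3 fell. Those that rose were the receptors Il1r1 (+2.16) and Il6st (+2.16) and the ligand Il11 (+2.01). Those that fell were Il1b (-3.82), Osm, oncostatin M (-3.68), Cxcl2 (-3.26), Il6ra (-2.11) and Tnf (-1.0), all of which myeloid cells express. Cxcl5 read 12.29 on SB, 12.08 on OB and 11.45 on EB but 7.64 on OIB, 8.06 on SIB and 7.26 on BI, and was at the floor on both uninjured arrays. Its difference was not called (adjusted p = 0.11). Of 23 marrow niche factors 4 rose and 2 fell, the latter close to the share over all genes, and without BI and BU 2 rose and 1 fell. The increases included Ptn and Tnfsf11, the osteoclast differentiation factor RANKL (+3.27), and Il15 (-2.89) and Bst1 (-3.03) fell. Cxcl12 had +2.22, adjusted p = 0.14, and Kitl, stem cell factor, +0.30, adjusted p = 0.809.

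Proliferation genes were lower in callus. Of 35 tested cell cycle genes 18 fell, against 9.27% over all genes, and 2 rose, a share below the 11.2% (median -1.31). The number that fell was 24 without BI, 1 without BU (median -1.04) and 17 without BI and BU. Nusap1, a spindle protein, read 13.54 on BU and 13.67 on OUB and 9.09 to 12.79, with a median of 9.90, in callus (-3.27 ± 0.76 (SE), adjusted p = 0.00738). Ccna2, cyclin A2, read 13.87 on BU and 14.01 on OUB and 11.75 to 13.57, with a median of 12.37, in callus (-1.48 ± 0.34 (SE), adjusted p = 0.00674). For both genes BI was the highest callus array and still lay below the uninjured ones. Mki67, the proliferation marker Ki-67, read 14.09 on BU and 13.42 on OUB, 14.21 on BI and 10.35 to 11.91 on the other callus arrays, and its adjusted p was 0.0704 with BI and 0.00448 without. The replication genes Mcm3, Mcm4, Mcm5 and Mcm6 fell by 2.10, 1.57, 1.5 and 1.34, and the kinases Aurka and Bub1 by 1.86 and 2.33. The 2 that rose were cyclin-dependent kinase inhibitors. Cdkn1c, which encodes p57, read 7.79 on BU and 9.02 on OUB and 11.28 to 12.66, with a median of 11.85, in callus (+3.53 ± 0.42 (SE), adjusted p = 0.000147), and Cdkn1a, which encodes p21, rose by 1.56. BI was the highest callus array for 30 of the 35 genes. The mean level of the list was 11.90 on BI, 12.07 on BU and 11.65 on OUB, where the neutrophil, erythroid and B cell lists were highest, and 10.38 to 10.58 on the other 5 callus arrays. The part of blood cell RNA in the cell cycle difference was not tested.

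**Figure D4:**
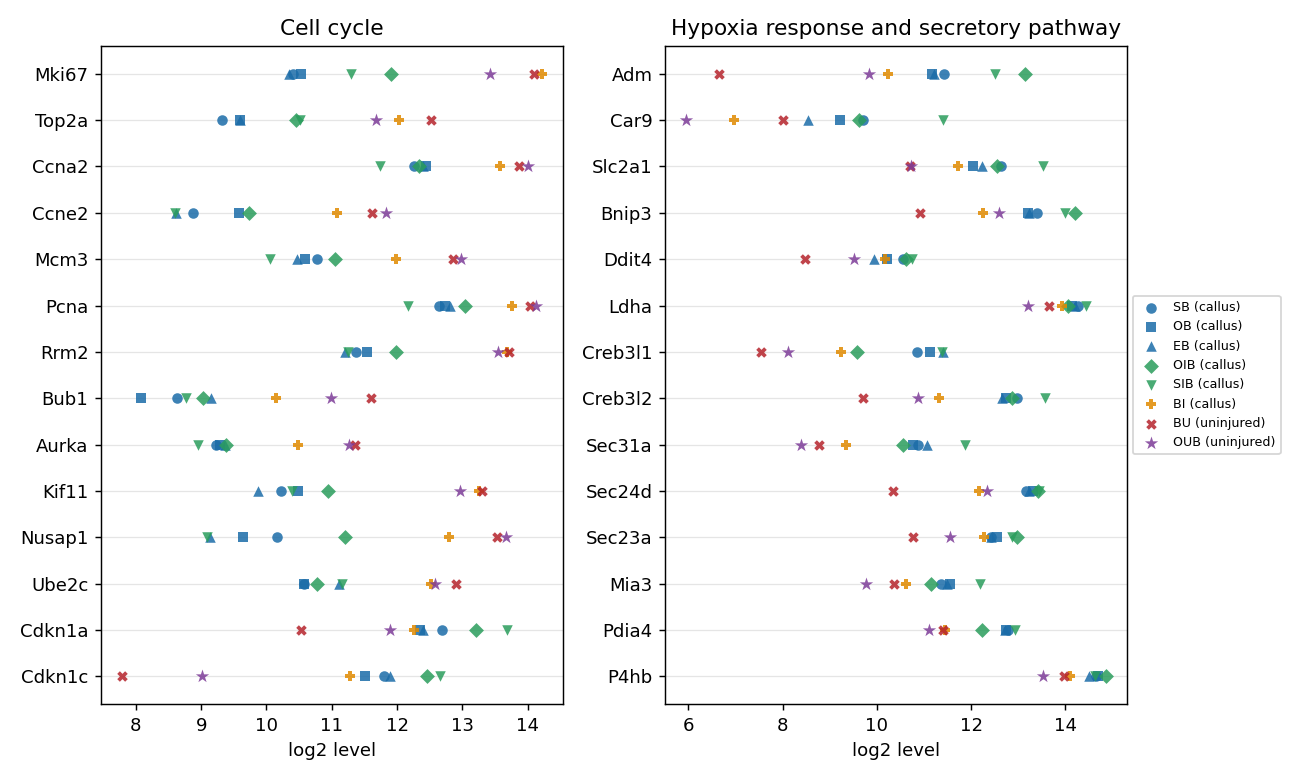
Log2 levels on the 8 BCSP arrays (points) of 14 cell cycle genes (left) and 14 genes of the hypoxia response and the secretory pathway (right). On the left BI lies nearest the uninjured arrays for all 12 genes above the inhibitors Cdkn1a and Cdkn1c, and on the right, where callus is higher, BI lies at or near the left edge of the callus arrays.

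Some genes induced by low oxygen were higher in callus. Of 20 tested glycolysis and hypoxia genes 5 rose, 11 without BI and 6 without BI and BU, and none fell. Adm, the vasodilator adrenomedullin, read 6.65 on BU and 9.84 on OUB and 10.23 to 13.15, with a median of 11.32, in callus (+3.37 ± 0.82 (SE), adjusted p = 0.00936), highest on OIB and SIB. Slc2a1, the glucose transporter GLUT1, read 10.71 on BU and 10.72 on OUB and 11.72 to 13.52, with a median of 12.39, in callus (+1.73 ± 0.43 (SE), adjusted p = 0.0109). Ldha, lactate dehydrogenase A, read 13.67 on BU and 13.21 on OUB and 13.94 to 14.45, with a median of 14.18, in callus (+0.74 ± 0.18 (SE), adjusted p = 0.00924). The groups did not overlap for any of these genes. Bnip3, which promotes mitophagy, rose by 1.62 and Ddit4, an inhibitor of mTOR, by 1.37. Car9, carbonic anhydrase IX, had +2.26, adjusted p = 0.054, and 0.00578 without BI. The hypoxia-inducible factors bind a core of ACGTG. Of the 19 list genes with a promoter in the RefSeq table (build GRCm38.p6, 250 bases before to 50 after the start), 12 held ACGTG on either strand (63.2%), against 24.7% of the 11618 tested genes with a promoter, and 4 of the 5 called genes were among the 12, all but Adm. The 120 bases before the start of 3 of them are shown so that the core and its place can be seen, 5′ to 3′ on the gene's strand, with ACGTG or its complement CACGT in capitals.
Bnip3, chr7:138909507-138909626, minus strand: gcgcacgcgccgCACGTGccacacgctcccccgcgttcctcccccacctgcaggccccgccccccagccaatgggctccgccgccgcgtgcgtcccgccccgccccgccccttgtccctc
Ldha, chr7:46845684-46845803, plus strand: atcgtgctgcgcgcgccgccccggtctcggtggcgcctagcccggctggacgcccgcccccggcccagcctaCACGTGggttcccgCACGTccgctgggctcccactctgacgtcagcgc
Slc2a1, chr4:119108625-119108744, plus strand: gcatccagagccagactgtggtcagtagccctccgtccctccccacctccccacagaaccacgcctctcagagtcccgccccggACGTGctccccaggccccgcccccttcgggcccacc

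A matched sequence is a description of these windows, and binding was not measured. The list was chosen for glycolysis and the hypoxia response, so its share with ACGTG describes the list and not the callus difference. Whether the hypoxia-inducible factors act in callus was not tested. Respiratory chain and ATP synthase genes had a median difference of +0.02, with 1 of 24 called higher and none lower. Both were below the 11.2% and 9.27% over all genes.

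Genes of the secretory pathway, through which matrix proteins leave the cell, were higher. Of 27 tested genes 13 rose and none fell (median +0.77), 14 without BI and 13 without BI and BU. Creb3l1, a membrane-bound factor that drives collagen secretion in osteoblasts, read 7.54 on BU and 8.11 on OUB and 9.24 to 11.39, with a median of 10.99, in callus (+2.77 ± 0.53 (SE), adjusted p = 0.00228), and Creb3l2 rose by 2.40. The COPII coat genes Sec31a, Sec24d and Sec23a, which carry procollagen out of the endoplasmic reticulum, rose by 2.16, 1.78 and 1.43, and Mia3, the cargo receptor TANGO1, by 1.32. BI was the lowest callus array for 18 of the 27 genes. The chaperones Hsp90b1, P4hb, Pdia4 and Hspa5 rose by 0.83, 0.83, 1.22 and 0.58. Of the 14 genes of the list not called, Ddit3 had -0.15, adjusted p = 0.795, Herpud1 +0.19, adjusted p = 0.619 and Xbp1 -0.01, adjusted p = 0.992. Xbp1 read 11.62 on BI and at least 12.88 on the other callus arrays. The called chaperones belong to the same list, so these genes do not stand for its stress genes as a whole. Lipid synthesis genes were called higher in 3 of 18, against 11.2% over all genes, and in 6 without BI, against 16.7%. The 3 were Scd2 (+2.08), Fasn (+1.12) and Acaca (+0.92).

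Blood cell markers were lower in callus, and no member of these lists was called higher. Over all genes 9.27% were called lower, and 14.9% without BI. Neutrophil markers fell in 8 of 14 tested (median -3.34) and in all 14 without BI, but in 0 without BU and 1 without BI and BU, with medians of -2.73 and -3.23. Ctsg, cathepsin G, read 14.39 on BU and 11.60 on OUB and 6.67 to 11.22, with a median of 8.53, in callus (-4.35 ± 1.17 (SE), adjusted p = 0.0162). S100a8, a subunit of calprotectin, had -2.71, adjusted p = 0.084. Macrophage markers fell in 8 of 19 (10 without BI) and mast cell markers in 6 of 8 (6 without BI). B and plasma cell markers fell in 6 of 15 (12 without BI) and T and NK cell markers in 2 of 8 (4 without BI). Without BI and BU these counts were 2, 1, 7 and 1, in that order. Erythroid markers had a median of -3.73 with 0 of 10 called by limma, 9 without BI and 0 without BI and BU. Itgam, the myeloid integrin CD11b, fell by 4.19, the mast cell protease Cpa3 by 4.55 and the receptor Kit by 2.61. Interferon response and antigen presentation genes fell in 11 of 28 (17 without BI and 4 without BI and BU) and rose in none. H2-Aa, a class II chain, fell by 2.62, the immunoproteasome subunit Psmb9 by 2.48 and Oas2, an antiviral sensor, by 1.42. Osteoclast markers (1 higher and 1 lower of 12) and adipocyte genes (2 higher and 1 lower of 13) were near the 11.2% higher and 9.27% lower over all genes. Endothelial markers (1 of 17 higher) and muscle markers (0 of 13) were below these shares.

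**Figure D5:**
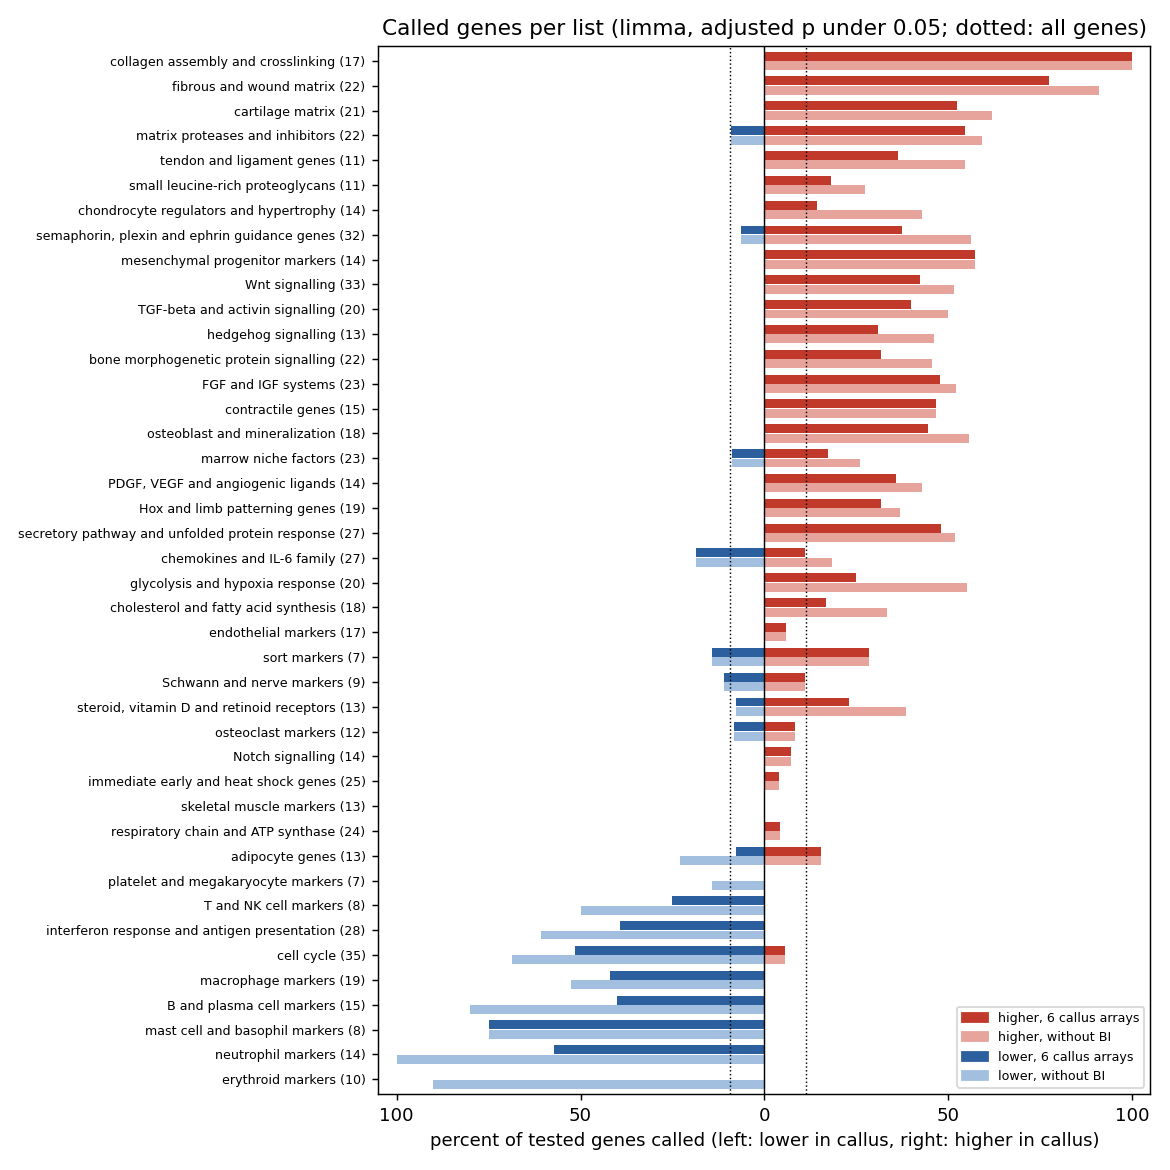
Percent of the tested genes of each of 42 lists (rows, number tested in brackets) called higher (right) or lower (left) in callus with all 6 callus arrays (dark bars) and without BI (pale bars), and the shares over all genes with 6 callus arrays (dotted lines, 11.2% and 9.27%). Collagen assembly reaches the right edge both ways, while the neutrophil, erythroid, B and plasma cell and cell cycle bars reach farther left without BI.

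When the mean level of the 79 blood marker genes was added to the fit as a covariate, 49 genes were called (0.338% of those tested), 45 higher (0.31%) and 4 lower (0.0276%). The covariate differs between the groups itself, so part of any group difference goes to it. Of the 15 genes with the largest increase 5 were still called, while the differences of others stayed large, as for Capn6 (+4.96, adjusted p = 0.0581), C1qtnf3 (+4.91, 0.166) and Peg3 (+5.11, 0.129). None of the 17 collagen assembly genes was called, with a median of +2.75, and none of the 35 cell cycle genes was called lower, with a median of -0.32. The genes still higher included Cthrc1 (+4.82, adjusted p = 0.0403), Adam12 (+4.13, 0.00782), Wnt5a (+4.13, 0.00457), Cdkn1c (+3.56, 0.0196), Has2, a hyaluronan synthase (+2.94, 0.0472) and Pappa (+2.67, 0.0402). Mest, an imprinted gene, Sar1a, the small GTPase of COPII transport (+1.11, 0.0465), and Kdelr1, the receptor that returns chaperones to the endoplasmic reticulum (+1.01, 0.0403), were in no list described above and are named after their values were seen. The 4 lower genes were Igk-V21, Ifit1bl1, H60c and Pip5k1bos, none of them in the marker lists behind the covariate. Without BI the covariate left 30 genes, all higher.

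The same comparison in SSC called 5251 genes (36.2%), 2891 higher (19.9%) and 2360 lower (16.3%), over 6 callus and 3 uninjured arrays. The response of BCSP differed from that of SSC at 0 genes (0% of 14504; 244 at an unadjusted p under 0.05), and at 0 without BI (317). The smallest p was that of Igk-V21, whose BCSP difference minus SSC difference was -4.22 (adjusted p = 0.0609), its BCSP callus values all being at the floor. Side by side, the BCSP and SSC differences were +5.65 and +6.30 for Adam12, +5.56 and +5.08 for Cthrc1, +4.67 and +4.25 for Loxl1, +4.18 and +4.5 for Wnt5a, +2.81 and +3.36 for Sp7 and -3.27 and -3.06 for Nusap1. A p that misses the threshold does not show that the responses were alike. The uninjured SSC arrays also had high neutrophil means, 13.47 to 14.22, and cell cycle means of 11.75 to 11.92, near those of BU and OUB. Their erythroid means ran from 7.83 to 12.37. How far blood cell RNA sets the differences of both populations was not tested.

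BCSP callus arrays also varied with the form of their titles, of which there were 3 (SB, OB and EB, then OIB, SIB and OUB, then BI and BU), and the labels do not say what the forms stand for. The median SD of a gene over SB, OB and EB was 0.18 log2 units, over the 5 callus arrays without BI 0.34, and over all 6 it was 0.47. OIB and SIB were higher than SB, OB and EB in the endothelial genes Sox17 (12.54 and 10.79 against 6.18 to 8.03), Ptprb and Emcn, and lower in Cxcl5. Of the 2965 called genes 95.4% moved in the called direction within both title forms that hold an uninjured array. These moves were from OUB to the mean of OIB and SIB, and from BU to BI. The same arrays made the calls, and the 2526 called genes without overlap had to move alike in both. The share is therefore a description and no check across title forms. BI was nearer to the uninjured mean than to the other callus arrays for 2672 of the 4584 genes called without it. SB, OB and EB have no uninjured array of their own title form. Beside Myod1, the genes in which BI lay farthest from the other 7 arrays included Samt2b, higher at 12.60 against at most 7.86, and the deubiquitinase Usp8, lower at 7.26 against at least 10.43.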

How the data were processed

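Each array, an Affymetrix mouse expression chip with 1 value per probe set, measured RNA of 1 sorted population. The values used are the deposited log2 levels of the series' value table. Per the labels' processing notes the submitters ran MAS5, whereas the methods name dChip and a commons of arrays for background, so which software made the values, and with what background step, is not settled. Each sample's group came from its title and its injury label.

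The deposited levels were taken off the log scale, quantile normalized over the 17 arrays, floored at their 20th percentile (5.95) and returned to log2. Of 45101 probe sets, 34945 carried 1 gene symbol, and the probe set of highest mean stood for each of 18193 genes. Genes had to reach the 40th percentile of all levels (7.20) on 2 arrays or more, which left 14504 for the test. A floor hides differences between low values, and quantile normalization forces 1 distribution on arrays that differ in cell makeup. One limma fit (version 3.58.1, R 4.3.3) held SSC and BCSP, callus and uninjured, with trended eBayes, 13 residual degrees of freedom and Benjamini-Hochberg adjustment over all genes. The fit was tested on simulated data. The small number of arrays, above all the 2 uninjured ones, limits the precision, and p-values measure only the spread between these arrays.

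The 42 gene lists and the members were chosen with earlier results of these data known. Of 814 genes listed, 755 were named on the array and 729 passed the filter. Named genes were the 15 largest changes in each direction among genes called with and without BI whose groups did not overlap and that moved alike in both title form pairs, up to 8 members of a list chosen for role or size, genes that the study names and sort markers. More than 8 are named for some lists, and those were chosen after their values were seen. Alternatives covered normalization, floor, filter, probe set choice, title form as a term or block, arrays left out, eBayes settings, array weights and the methods' t-test. The fits without BI and BU, without BI and OIB, and with the blood marker covariate were added after seeing the data. Promoters and symbols came from RefSeq tables.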

Additional observations from a re-analysis of the deposited data

Results flagged for a closer look

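In 265 groups of 6 callus values (42 list means and 223 named genes) the gap between the farthest array and its nearest neighbour was divided by the range, and a ratio above Dixon's critical value for 6 values was taken as far. For independent, normally distributed values chance gives about 1 such group in 20. That rate does not apply here, because list means and named genes overlap and SB, OB and EB were nearly alike. BI was also known to stand apart, and Myod1 is among the genes in which it lay farthest. The counts are therefore a description. The ratio was above the critical value in 33 groups, and BI was the far array in 29 of them.

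Among list means, BI was far below the other callus arrays for collagen assembly (11 against 12.18 for the nearest, ratio 0.664), hedgehog signalling (ratio 0.704), TGF-beta and activin signalling (0.641), PDGF, VEGF and angiogenic ligands (0.73), and guidance genes (0.85). It was far above them for the cell cycle (11.90 against 10.58, ratio 0.872), platelet markers (0.823), B and plasma cell markers (10.42 against 8.25, ratio 0.725), T and NK cell markers (0.777) and skeletal muscle markers (8.07 against 7.35, ratio 0.72).

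Among single genes, BI was far below for Col10a1 (7.29 against 13.23, ratio 0.766), Fzd2 (8.15 against 10.73, ratio 0.662), Grb10 (12.25 against 14.19, ratio 0.809), Tgfb1 (0.705), Rxra (0.634), Col6a2 (0.634), Serpinh1 (0.645), Mkx (0.705), Sec24d (0.778), Hsp90b1 (0.661), Xbp1 (0.703) and Sar1a (0.635). BI was far above for Myod1 (0.876), Dntt (10.27 against 7.93, ratio 0.666), Lef1 (9.91 against 8.24, ratio 0.717), Aurka (0.719), Mcm4 (0.653) and Mcm6 (0.672). Ifit1bl1 had a ratio of 1 because it was at the floor on the other 5 callus arrays and at 6.03 on BI. SIB was far above for Gper1 (11.19 against 9.54, ratio 0.687) and Axin2 (0.637), and OIB for Cpa3 (0.684) and H60c (0.688).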

How the results depend on the processing

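BCSP calls numbered 1718 with the 8 BCSP arrays alone, 496 by the methods' t-test after Benjamini-Hochberg, 5340 with callus arrays of settled ovary state, 4925 without BI and OIB and 49 (45 higher, 4 lower) with the blood marker covariate, against 2965. Leaving out 1 array at a time gave 702 (without BU) to 4584 (without BI), and 1842 without OUB. Without BI the t-test gave 2815, the covariate 30, and a further array left out 2692 (BU) to 4925 (OIB). SSC calls were 1947 with the covariate and 4079 to 6021 with 1 array left out. The BCSP minus SSC difference was called at 1 gene with the higher floor, with title form as a random block and with array pairs as a random block, at 4 with no filter and at 4 without BI and BU, and at 0 to 5 with 1 array left out (5 without the first SSC uninjured array). Without BI it was called at 1 with the higher floor, 9 with no filter and 4 with array pairs as a random block, and at 0 to 17 with 1 array left out (17 without OUB). The other settings kept these counts within 1.5 times. Many named genes lost their call while keeping their sign. Of the 189 called in the main fit, 165 did so with the covariate and 154 by the t-test after Benjamini-Hochberg. With the 8 BCSP arrays alone 47 did so. Of 8245 values of 223 named genes, 7 turned a called sign. With the covariate these were Slfn4 (0.0734), Mmp9 (0.122), Sema4d (0.345), Il1b (0.277) and Osm (0.324). On the probe set of widest range they were Smo (-0.0911) and Esr1 (0.755). The cause was not tested. With SSC and BCSP arrays of one ovary state and title form paired as a random block, 3153 BCSP genes were called. The labels carry no replicate numbers to pair by. With 2 uninjured arrays, differences that rest on BU alone cannot be told from the state of that array, and genes at the floor have no order.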

Other observations

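Imprinted genes, which are expressed from 1 parental allele and many of which act in fetal growth, were mostly higher in BCSP from callus. The list was chosen after values were seen, so its count is a description. Of 26 tested genes 16 were called higher and none lower, with a median of +1.97, against 11.2% higher over all genes, and the count was 17 without BI and 12 without BI and BU. Mest, a hydrolase of embryonic mesoderm, read 8.62 on BU and 10.32 on OUB and 12.79 to 14.01, with a median of 13.96, in callus (+4.20 ± 0.44 (SE), adjusted p = 6.14e-05, limma). Igf2, the fetal growth factor, read 7.92 on BU and 10.08 on OUB and 11.31 to 13.64, with a median of 13.25, in callus (+3.92 ± 0.56 (SE), adjusted p = 0.000423), and the groups did not overlap. The growth-restraining genes Grb10 and Cdkn1c were higher by 3.71 and 3.53, as were the receptor Igf2r (+1.89), which clears Igf2, and the noncoding Meg3 (+2.74). Plagl1, a zinc finger factor, rose by 2.05. Dlk1 had +0.24, adjusted p = 0.657. Nnat, neuronatin, was lower without BI and BU (-2.0, adjusted p = 0.0304). With the blood marker covariate Cdkn1c, Mest and Plagl1 were still called. In SSC 17 of the genes were called higher and 1 lower.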
